A study of Arabidopsis thaliana with 75 samples.

Results

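A set of 162 Arabidopsis genes carried N6-methyladenosine (m6A) peaks in leaves at the time called 24 and none at the time called 00, both in the wild type Col-0, and the 1125 peaks of these genes at 24 are described here. A gene was a member when a peak summit lay in it in all 3 Col-0 lists at 24 and in none of the 3 Col-0 lists at 00, with a mean of 10 or more CPM of mRNA (counts scaled per 1e6 reads on gene loci) in both Col-0 leaf groups. Peaks were given to the gene on the strand opposite to that of the peak file, which placed 99.5% of summits in a gene, against 4.00% for the same strand. The members' peaks numbered 417, 317 and 391 in the 3 lists, of 73807 peaks in these lists and 497462 in all 26 lists. The members were 1.89% of the 8572 genes at the CPM minimum, and the opposite pattern, 3 lists at 00 and none at 24, held for 45 genes or 0.525%. Since the Col-0 leaf peak lists and the Col-0 leaf CPM chose the members, every value from these libraries is a description without a test. The members were chosen by these measured values.

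m6A is the most common internal modification of messenger RNA. A complex that holds the methyltransferase MTA writes it, demethylases such as ALKBH10B remove it, and YTH-domain proteins of the ECT family bind it. In plant mRNA it lies mostly towards the 3′ end, and it is known to bear on how long a transcript lives and how it is translated. Flg22 is a peptide of bacterial flagellin that plants sense through the receptor FLS2, which sets off pattern-triggered immunity.

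The study measured m6A by antibody enrichment with sequencing, mRNA by poly(A) sequencing, and uncapped or cleaved RNA by GMUCT, which maps the 5′ ends of transcripts that lack a cap, in 3 samples a group. The leaf groups were mta at 24, mta at 00, Col-0 at 24 and Col-0 at 00, from plants 4 weeks old. The seedling groups were mta, 35SALKBH10B and Col-0, each given 1 µM flg22 for 4 h or left untreated, from whole seedlings 14 days old. The labels do not say what kind of allele mta is, and 35SALKBH10B is named for a 35S promoter, which drives expression in most plant tissues. The leaf titles name Pst, a bacterium, the protocol describes infiltration of leaves with bacteria, and the treatment tag of the leaf samples at 24 names flg22 for 4 h, so leaf groups are called 24 and 00, with no unit. The m6A of mta leaves at 24 is not analysed here, and Col-0 untreated seedlings have lists of replicates 2 and 3 only.

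Leaf mRNA libraries held 20467621 to 44052628 reads on gene loci, seedling mRNA libraries 9442047 to 13222937, and GMUCT libraries 3107893 to 41465534, while no file gives the depth of the m6A libraries. MTA, the gene altered in mta, was listed at 0 in every mRNA library, so mRNA did not check the labels. In GMUCT it had 9.65, 9.91 and 10.02 RPM (reads scaled per 1e6 reads) in untreated mta seedlings, against 21.8, 18.3 and 23.8 RPM in untreated Col-0. The sums of 5 mesophyll markers were 53969 to 61703 CPM in mta at 24, 83895 to 95374 CPM in mta at 00, 39610 to 51757 CPM in Col-0 at 24 and 69064 to 75431 CPM in Col-0 at 00, with none of the 5 at 0. These sums were thus lower at 24 in both genotypes, and their part in the results below was not tested. In such bulk samples fewer cells of a type and less RNA per cell cannot be told apart. The mta library at 00 of replicate 1 lay nearer to Col-0 at 24 than the other two did, with a mean Spearman correlation across genes of 0.82 against 0.76 and 0.77.

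Each member had 1 or more peaks in each list, and the strongest one was 2.99-fold over the caller's background for the median member, with a range of 1.76 to 6.73 over members (median of the 3 lists). Fold enrichments here are the authors' own values per peak. UMAMIT44 (AT3G28130, chr3:10465260-10468958, + strand), one of a family of amino acid transporters, had the strongest peak by this measure, at 6.48, 8.72 and 6.73-fold in replicates 1, 2 and 3. Its 3 summits lay within 3 bases of each other, 69.5% of the way from the 5′ to the 3′ end of the gene, and the 3 peaks shared chr3:10467795-10467866. CDS2 (AT4G22340, chr4:11799852-11803522, − strand), an enzyme that makes CDP-diacylglycerol for phospholipids, had peaks of 3.46, 5.92 and 5.11-fold with the summit on the same base in all 3 lists, at 92.0% of the gene. The locus AT1G10820 (chr1:3600738-3605076, − strand) had 4.29, 5.34 and 5.40-fold, with summits within 4 bases at 82.9%. In these 3 genes the lists pointed at 1 place.

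In the other strong members the place of the top summit differed between lists. IDD4 (AT2G02080, chr2:518079-521737, − strand), a zinc-finger transcription factor, had top peaks of 2.99, 5.27 and 8.34-fold, with the summit at 77.8% of the gene in replicate 1 and at 19.5% and 19.3% in replicates 2 and 3. RECA1 (AT1G79050, chr1:29736033-29741304, − strand), a chloroplast homolog of the bacterial recombination protein RecA, had 6.16, 3.54 and 5.16-fold, with summits at 24.4%, 96.4% and 24.5%. AT1G09975 covers 22.3% of RECA1 on the same strand, so a peak there could belong to either, and PSBR covers 18.5% of it on the other strand. KT2/3 (AT4G22200, chr4:11746490-11750698, − strand), the potassium channel of the phloem also called AKT2, had 2.91, 5.30 and 4.88-fold at 46.9%, 93.1% and 46.7%. For these 3 genes, 2 of the lists shared a summit place and the third had another. The loci AT1G48120 (3.95, 4.92 and 5.22-fold) and AT4G14930 (5.13, 5.61 and 1.93-fold) complete the 8 strongest, and 44.9% of AT4G14930 is covered by AO1 on the same strand, so its peaks could belong to either.

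Over all members, 113 of 162 had at least 1 position under a peak of each list, and 64 had peaks of the 3 lists that overlapped each other by 50% or more of both. The top summits of the 3 lists lay within 100 bases in 23 members, and their median span was 1013 bases. In 20 members each list had exactly 1 peak. Members had 2.57, 1.96 and 2.41 peaks each in replicates 1, 2 and 3.

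By the caller's own measure fewer of the members' peaks were strong. A q of 0.05 or less was reached by 57.1%, 68.1% and 65.5% of the members' peaks, against 70.7%, 77.6% and 71.8% of the peaks of all genes at the CPM minimum. All 3 lists held such a peak in 83 members. The median fold was 2.28, 2.63 and 2.66 for members' peaks, against 2.43, 2.84 and 2.80 for the 4214 genes with a peak in all 6 Col-0 leaf lists. The leaf 24 peaks covered a median of 22.5% of a member's length, against 35.6% in those genes.

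Just outside the rule, 216 genes had a peak in 2 lists at 24 and none at 00, and 278 had 3 lists at 24 and 1 at 00. Without the CPM minimum 291 genes met the pattern. At that minimum, EMB1923, CDS2 and AT1G10820 were the members with the lowest means, at 10.1, 10.2 and 10.3 CPM in their lower group, and AT5G39850, AT2G32295 and MLO11 fell just short at 9.89, 9.78 and 9.76 CPM.

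Along the gene, the members' summits at 24 lay more often towards the 3′ end, unequally in the 3 lists. In replicates 1 and 3 their share there was near that of all genes. The last 20% of the gene held 23.3%, 44.2% and 29.4% of the members' summits in replicates 1, 2 and 3, against 22.5%, 35.2% and 27.7% for all genes at the CPM minimum. Replicate 2 was highest in both sets. The top summit lay in the last 20% of the gene in all 3 lists in 12 members, and in none of the lists in 54. Positions run over the annotated gene span, introns included, since the files give no exons or untranslated regions for it. The sequences under the peaks are not analysed here.

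**Figure D1:**
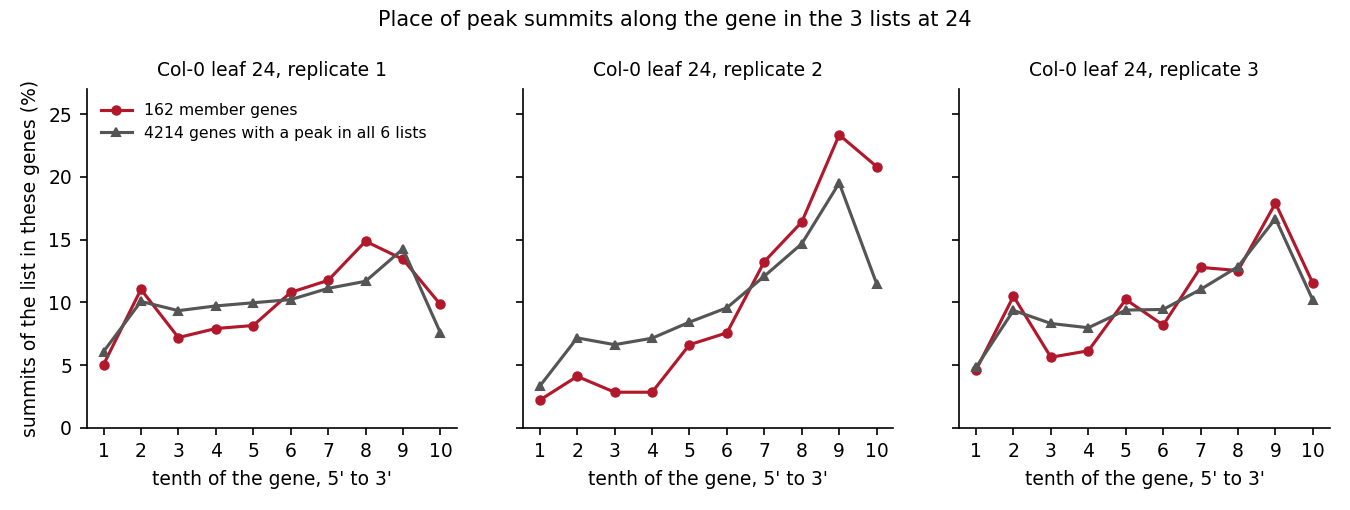
Share of peak summits (%, y axis) in 10 equal parts of the gene from 5′ to 3′ (x axis) in the 3 Col-0 leaf lists at 24, for the 162 member genes and for the 4214 genes with a peak in all 6 Col-0 leaf lists. The share of the members' summits in the last 10% of the gene is 9.83%, 20.8% and 11.5% in replicates 1, 2 and 3, and the rise towards the 3′ end is steepest in replicate 2.

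The members lay on chromosomes 1 to 5 in numbers of 46, 26, 27, 34 and 29, and had a median length of 3143 bases, against 2797.5 for all genes at the CPM minimum. Their symbols span several groups of function. They include the light-signalling factors HY5, PIF3 and SPA1, the auxin response factors ARF8 and ARF17, the cytokinin response regulators RR10 and RR12, and the chloroplast import proteins TOC159 and TOC75-III. None of the 147 genes in lists of immunity, hormone, photosynthesis, senescence, chaperone and m6A machinery genes was a member. The listed genes ECT6, PDF1.2A and DIN2 had the members' peak pattern, but their mRNA was under the CPM minimum. ECT6, an m6A reader, was listed at 0 CPM in both Col-0 leaf groups. Of these 147 genes, 86 were at the CPM minimum and could be members, and with 1.89% of all genes at the minimum being members, a count of 0 among 86 is near the background. A peak in all 6 Col-0 leaf lists was found in 19 of the 86, and in 4214 of the 8572 genes at the minimum.

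The m6A lists that the rule did not use are those of mta leaves at 00 and of seedlings. In mta leaves at 00 a peak was found in 29, 23 and 22 of the 162 members in replicates 1, 2 and 3 (17.9%, 14.2% and 13.6%), where the background over all genes at the CPM minimum was 63.8%, 66.8% and 52.8%. The rule required that members lack a peak in Col-0 at 00, and among all 1689 genes that lack one, the members included, the shares were 9.65%, 9.77% and 5.51%. Across the 3 lists 48 members had a peak in at least 1 and 114 in none. The 6 with a peak in all 3 were AT3G13690, AT2G48160, AT2G20950, IDD4, HK1 (a histidine kinase) and TOC159 (the receptor for proteins entering the chloroplast), at median folds of 4.14, 3.399, 3.31, 2.91, 2.47 and 1.94. Of the members' peaks in mta at 00, 68.5%, 93.5% and 74.5% lay over a peak that Col-0 leaves had at 24. In the 4214 genes with a peak in all 6 Col-0 leaf lists these shares were 88.7%, 95.6% and 93.3%, above the members' share in each list. Leaf 24 peaks also covered more of those genes (median 35.6% of the length against 22.5% in members), and the part of this was not tested.

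In Col-0 seedlings with flg22 a peak was found in 84, 92 and 80 members (51.9%, 56.8% and 49.4%, background 79.6%, 83.5% and 74.0% of all genes at the CPM minimum). In untreated Col-0 seedlings it was found in 125 and 115 members (77.2% and 71.0%, background 86.8% and 82.5%). The share of members was thus lower in each flg22 list than in either untreated list, and so was the share over the 1689 genes, at 54.1%, 59.6% and 46.8% with flg22 against 66.7% and 60.3% untreated. An exact permutation of 3 against 2 lists cannot reach a p of 0.05, so no test was made. In mta seedlings the members' shares were 63.0%, 43.8% and 56.2% with flg22 (background 80.1%, 66.3% and 75.4%) against 66.7%, 71.6% and 74.1% untreated (background 82.5%, 83.5% and 84.6%). In 35SALKBH10B seedlings they were 59.3%, 60.5% and 51.9% with flg22 (background 78.2%, 80.6% and 74.0%) against 81.5%, 61.7% and 64.8% untreated (background 89.5%, 79.3% and 80.7%). Each of the 3 genotypes had its flg22 lists below its untreated lists for the members. In mta this order also held over all genes at the CPM minimum and over the 1689 genes. In Col-0 it held over the 1689 genes, while over all genes at the minimum the lists overlapped. In 35SALKBH10B the lists overlapped in both larger sets. The order is thus not read as particular to the members in mta or Col-0. Differences between the members and the larger sets were not tested. Leaf lists reach down to p 0.01 and seedling lists to q 0.01, so shares are not compared between tissues.

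**Figure D2:**
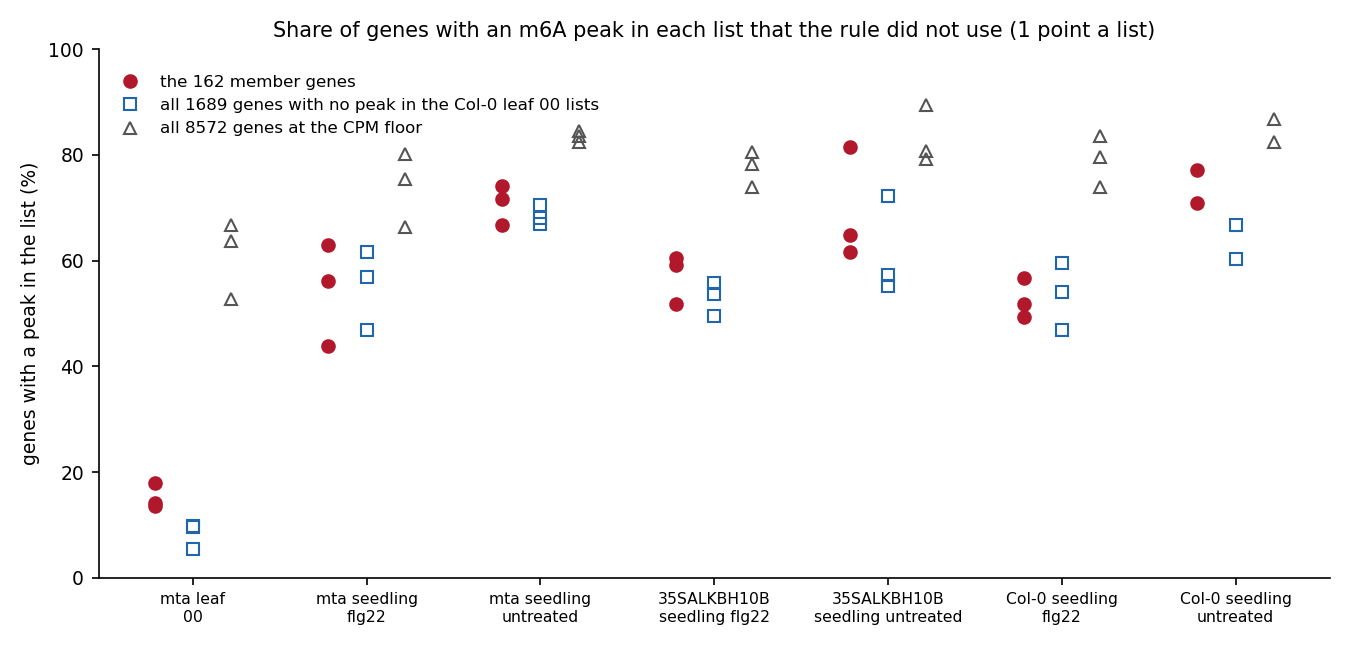
Share of genes with an m6A peak (%, y axis) in each list that the rule did not use (x axis, 1 point a list), for the 162 members, for all 1689 genes without a peak in the Col-0 leaf 00 lists (members included) and for all 8572 genes at the CPM minimum. The members lie at 13.6% to 17.9% in mta leaves at 00 and at 71.0% to 77.2% in untreated Col-0 seedlings, below all genes at the minimum in each list.

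By gene, 73 members had a peak in all 3 Col-0 flg22 lists and 110 in both untreated lists. A peak in both untreated lists and in no flg22 list was found in 22 members, and the reverse in 1, AT1G10900. The first pattern asks for a peak in 2 lists and the reverse in 3, so the counts are not alike. Neither pattern was counted over all genes at the CPM minimum, so these counts are not read as particular to the members. In Col-0 seedlings the mRNA of 20 of the 22 was lower with flg22 than without (edgeR's quasi-likelihood test, adjusted p under 0.05), where 58.6% of all members, 37.5% of all genes at the CPM minimum and 30.7% of all genes tested were lower. Their median level was 9.33 CPM with flg22 against 21.8 CPM untreated. Among the 69 members with a peak in all 5 lists, 28 were lower and 22 higher, with median levels of 30.9 against 38.8 CPM. AT1G10900 had mRNA of 53.9 ± 7.01 CPM with flg22 against 17.2 ± 1.93 CPM untreated (mean ± SD, n = 3 each). Among the 27 members with a peak in none of the 5 lists, 20 were lower and 1 was higher, with median levels of 4.07 against 6.65 CPM. The part of the mRNA level in the peak calls was not tested.

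Named after their values were seen, the 22 members include the cyclic nucleotide-gated channel CNGC4, the potassium transporter KUP3, the phosphate transporter PHT4;5, ASE2 of purine synthesis, the calcium-dependent kinase CDPK9, and CDS2. CNGC4 had 10.7 ± 1.76 CPM with flg22 against 25.3 ± 1.68 CPM untreated, and KUP3 9.72 ± 3.06 against 25.2 ± 2.84 CPM. ASE2 had 23.02 ± 3.56 CPM with flg22 against 59.8 ± 4.01 CPM untreated. CDS2 was 1 of the 2 of these whose mRNA did not pass, at 4.20 ± 0.696 with flg22 against 5.58 ± 1.44 CPM untreated (log2 fold change −0.42, edgeR adjusted p = 0.222).

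Of the members' peaks in Col-0 flg22 seedling lists, 85.7%, 78.5% and 82.2% overlapped a Col-0 leaf peak at 24, and of those in the untreated lists 82.3% and 76.9%. The genes with a peak in all 6 Col-0 leaf lists had 93.0%, 92.1% and 93.2% with flg22 and 93.6% and 93.2% untreated. The members lay below them in every list, but leaf 24 peaks also covered less of a member (median 22.5% of its length against 35.6%). The part of this coverage in the difference was not tested. Among members with a peak in all 5 Col-0 seedling lists, SPS1 (AT1G78510), a solanesyl diphosphate synthase of quinone synthesis, had the highest median fold. Its strongest peak was 9.67, 7.15 and 8.71-fold with flg22 against 10.05 and 12.6-fold untreated. AAC3 (AT4G28390), a mitochondrial ADP/ATP carrier, had 7.33, 7.16 and 7.03-fold with flg22 against 8.73 and 7.44-fold untreated. ACC1 (AT1G36160), the acetyl-CoA carboxylase of fatty acid elongation, had 6.85, 6.78 and 6.13-fold with flg22 against 7.504 and 7.07-fold untreated. In all 3 genes each flg22 value lay below both untreated values. The median fold of all peaks in these lists had this order too. It was 4.27, 3.90 and 4.36 with flg22 against 4.53 and 4.64 untreated, so the order was not particular to these genes. AT2G20950 had the same order, with 7.01, 5.80 and 7.04-fold with flg22 against 8.00 and 8.07-fold untreated. AT5G27120 had the opposite order, with 8.27, 8.29 and 8.17-fold with flg22 against 8.00 and 5.73-fold untreated. The lists overlapped for TOC159, with 9.99, 8.04 and 8.10-fold with flg22 against 8.61 and 7.35-fold untreated.

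In seedlings the last 10% of the gene held a larger share of the members' summits in Col-0 than in mta. In untreated mta lists it was 16.5%, 16.1% and 16.4%, against 33.5% and 30.8% in untreated Col-0, and with flg22 it was 16.6%, 15.8% and 9.58% in mta against 25%, 25% and 24.4% in Col-0. The lists of the genotypes did not overlap in either state. All genes at the CPM minimum showed the same untreated order, at 19.4%, 17.6% and 18.9% in mta against 28.8% and 27.5% in Col-0. The untreated order was thus not particular to the members. With flg22 the shares over all genes are not given here, so that order is not read as particular to the members.

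In Col-0 leaves, whose mRNA entered the rule, the members' mRNA was mostly lower at 24. The 3 libraries at 24 all lay below the 3 at 00 in 105 members and above them in 21, where the background over all genes at the CPM minimum was 34.8% lower and 40.3% higher. The median member had 29.1 CPM at 24 and 44.3 CPM at 00, and the 45 genes of the opposite peak pattern 94.3 CPM at 24 and 19.2 CPM at 00. The median log2 fold change was −0.65 for members and 0.02 for all genes at the minimum.

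The leaves of mta were not used by the rule, and there too more members were lower than higher at 24. Of 162 members tested, 71 were lower and 30 higher (edgeR's quasi-likelihood test, adjusted p under 0.05), or 43.8% and 18.5%, where the background was 28.9% lower and 32.5% higher over all genes at the CPM minimum and 28.1% and 30.9% over all genes tested. The median log2 fold change was −0.27 for the members and 0.03 for all genes at the minimum. Without the mta library at 00 of replicate 1, 74 were lower and 35 higher. This fit had no block for the replicate number, by which these samples pair as read from the data. No label says that replicates were separate plants, and p-values then cover only the spread among these samples, part of which may be technical.

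BES1 (AT1G19350, chr1:6688463-6691216, + strand), a transcription factor that turns genes on and off downstream of the brassinosteroid hormones, had 55.1, 53.1 and 53.1 CPM in mta at 24, against 316, 315 and 264 CPM in mta at 00. In Col-0 it had 33.5, 37.9 and 33.7 CPM at 24 against 313, 323.5 and 315 CPM at 00. All libraries at 24 thus lay far below those at 00 in both genotypes, with a log2 fold change of −2.52 ± 0.11 in mta (SE, edgeR adjusted p = 5.9e-08). The locus RRA3 overlaps 29.7% of BES1 on the other strand. PIP1;5 (AT4G23400, chr4:12220641-12222468, + strand), a water channel of the plasma membrane, had 11.6, 15.6 and 14.2 CPM in mta at 24 against 82.8, 145 and 131 CPM in mta at 00 (−3.17 ± 0.31, adjusted p = 8.6e-06). In Col-0 it had 10.3, 21.4 and 13.3 CPM at 24 against 98.0, 126 and 136 CPM at 00. Both genotypes were alike in order, and the 2 genotypes' libraries overlapped at each time.

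PAA2 (AT5G21930), the copper pump of the thylakoid, had 34.9 ± 5.85 CPM in mta at 24 against 140.0 ± 22.4 CPM at 00 (n = 3 each, −2.06 ± 0.24, edgeR adjusted p = 2.8e-05). ACL (AT2G23600), a methyl esterase, had 43.3 ± 5.81 against 147.8 ± 20.3 CPM (−1.81 ± 0.15, adjusted p = 2.9e-06). The loci AT4G19530 and AT3G17770 were lower by log2 fold changes of −2.93 and −1.64.

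Fewer members were higher in mta leaves at 24. BGLU10 (AT4G27830, chr4:13861649-13864659, − strand), a beta-glucosidase, had 217, 174 and 179 CPM in mta at 24, against 65.0, 32.3 and 36.3 CPM in mta at 00 (2.05 ± 0.25, edgeR adjusted p = 3.8e-05). AAC3 (chr4:14041288-14043347, − strand) had 71.8, 40.2 and 44.2 CPM in mta at 24, against 20.1, 12.1 and 13.03 CPM in mta at 00 (1.74 ± 0.25, adjusted p = 0.000116). Each library at 24 lay above each at 00 in both genes. RR10 (AT4G31920), a transcription factor of the cytokinin response, had 18.3 ± 2.99 CPM in mta at 24 against 7.42 ± 0.41 CPM at 00 (1.25 ± 0.13, adjusted p = 1.5e-05). AT3G14200 rose by 2.08 and AT3G21690 by 1.101 on the log2 scale. In Col-0 the values at 24 also lay above those at 00 for BGLU10 (204, 126.5 and 157 against 34.8, 22.9 and 23.1 CPM) and AAC3 (60.7, 52.1 and 61.9 against 17.98, 11.04 and 11.1 CPM).

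Between mta and Col-0 leaves the values are a description without a test, since the Col-0 leaf libraries chose the members. At 24 the 3 mta libraries all lay above the 3 Col-0 libraries in 64 members and all below them in 23, and in 75 the genotypes overlapped. Over all genes at the CPM minimum 17.8% lay above and 31.2% below. The median log2 fold change of mta against Col-0 at 24 was 0.16 for members and −0.09 for all genes at the minimum.

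ASN2 (AT5G65010, chr5:25969035-25972615, + strand), an asparagine synthetase that stores nitrogen as asparagine, had the largest difference among the members. It had 514.5, 496 and 459 CPM in mta at 24 against 21.7, 38.2 and 22.3 CPM in Col-0 at 24, a log2 fold change of 4.14. At 00 it had 489.6, 344 and 331 CPM in mta against 193, 149.6 and 148.5 CPM in Col-0 (log2 fold change 1.24). The mta libraries lay above all Col-0 libraries at both times, and those of mta at 24 and at 00 overlapped (0.29 ± 0.21, edgeR adjusted p = 0.25). In seedlings the order was the opposite, and untreated mta had 178.3 ± 6.04 CPM against untreated Col-0 with 211.5 ± 2.93 CPM (n = 3 each, −0.25 ± 0.07, edgeR adjusted p = 0.00877), a call lost without mta replicate 1.

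UGT75B1 (AT1G05560, chr1:1645300-1647435, − strand), a UDP-glucosyltransferase, had 208, 134 and 174 CPM in mta at 24 against 24.6, 23.7 and 20.2 CPM in Col-0 at 24 (log2 fold change 2.90). At 00 it had 108, 50.3 and 75.7 CPM in mta against 24.01, 23.1 and 19.98 CPM in Col-0 (log2 fold change 1.79). Its Col-0 values at 24 and 00 overlapped, while in mta all 3 values at 24 exceeded those at 00 (1.101 ± 0.22, edgeR adjusted p = 0.00134). Untreated mta seedlings also had more, at 63.0 ± 5.05 CPM against 31.4 ± 1.77 CPM in untreated Col-0 seedlings (1.01 ± 0.11, adjusted p = 4.9e-09). The annotated locus AT1G05562 covers all of UGT75B1 on the other strand and was listed at 0 in the Col-0 libraries.

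The locus AT2G36950 had 32.3, 34.0 and 32.5 CPM in mta at 24 against 12.7, 9.68 and 9.35 CPM in Col-0 at 24 (log2 fold change 1.63). For BES1, whose values are given above, each mta library at 24 lay above each Col-0 library at 24, and at 00 the genotypes overlapped. CDPK9 (AT5G23580, chr5:7950202-7952619, − strand) had 26.1, 25.4 and 25.4 CPM in mta at 24 against 48.9, 36.6 and 41.4 CPM in Col-0 at 24 (−0.74). Its Col-0 values at 24 were the highest of the 4 leaf groups, against 15.6, 15.2 and 14.3 CPM in Col-0 at 00 and 13.1, 13.2 and 12.6 CPM in mta at 00. AT1G76020 had 17.5, 21.8 and 23.2 CPM in mta at 24 against 32.2, 42.3 and 40.8 CPM in Col-0 at 24. AT2G27360 had 15.5, 9.91 and 12.2 CPM in mta at 24 against 24.5, 17.02 and 21.6 CPM in Col-0 at 24. In both genes each mta library lay below each Col-0 library.

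**Figure D3:**
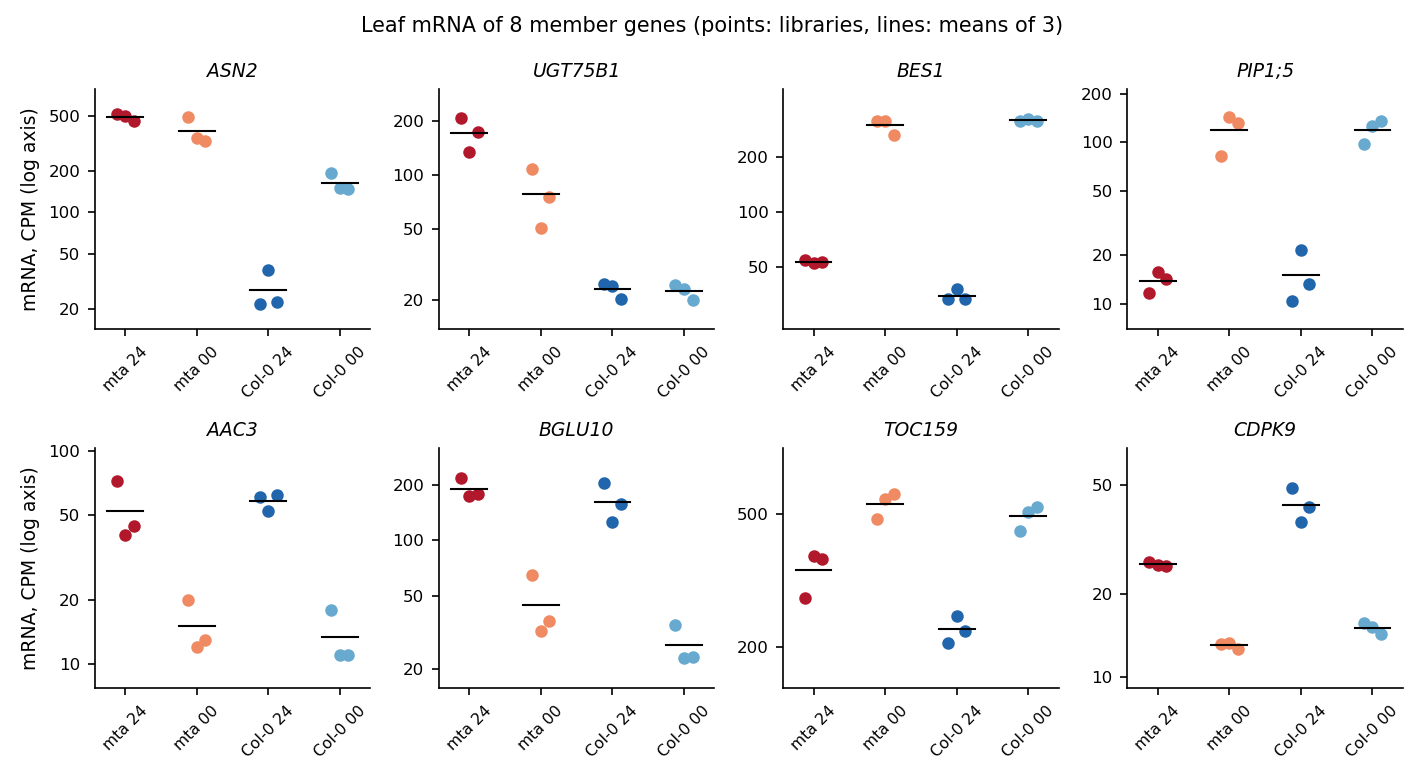
Leaf mRNA of 8 member genes in CPM (log y axis) in mta at 24, mta at 00, Col-0 at 24 and Col-0 at 00 (points are libraries, lines are means of 3). ASN2 at 24 lies at 459 to 514.5 CPM in mta and at 21.7 to 38.2 CPM in Col-0, while BES1 and PIP1;5 are low at 24 in both genotypes.

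At 00 the 3 mta libraries all lay above the 3 Col-0 libraries in 17 members and all below them in 59, and in 86 the genotypes overlapped. Over all genes at the CPM minimum 14.8% lay above and 31.2% below. The median log2 fold change was −0.18 for members and −0.11 for all genes at the minimum. The extremes, named after the values were seen, were SHM7, a serine hydroxymethyltransferase, and SNZ, an AP2-type repressor of flowering. SHM7 had 90.8, 49.0 and 44.97 CPM in mta at 00 against 321, 331 and 298 CPM in Col-0 at 00 (log2 fold change −2.39). SNZ had 64.2, 48.6 and 51.8 CPM in mta at 00 against 13.1, 14.1 and 12.6 CPM in Col-0 at 00 (2.04).

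In Col-0 seedlings most members fell with flg22. Of 162 members tested, 95 were lower and 29 higher (58.6% and 17.9%), where the background was 37.5% lower and 31.3% higher over all genes at the CPM minimum and 30.7% and 27.9% over all genes tested. The median log2 fold change was −0.61 for members and −0.07 for all genes at the minimum. Seedling levels are given as CPM over the TMM-scaled library size, and seedling counts do not separate the strands. Of these 95 lower members, 55 were also lower at 24 in mta leaves and 13 were higher there. The same overlap was not counted over all genes.

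The 4 largest falls were in ATH1, UMAMIT46, AT2G35130 and AR192. ATH1 (AT4G32980), a homeobox transcription factor, had 0, 0.985 and 0.763 CPM with flg22 against 4.64, 6.24 and 5.02 CPM untreated (−3.23 ± 0.50, edgeR adjusted p = 8.3e-07). UMAMIT46 (AT3G28070), of the same transporter family as UMAMIT44, had 0.816, 0.109 and 0.981 CPM with flg22 against 3.04, 5.38 and 3.38 CPM untreated (−2.59 ± 0.48, adjusted p = 1.5e-05). AR192 (AT4G26780), a GrpE-type co-chaperone of mitochondria, had 7.34, 7.88 and 5.23 CPM with flg22 against 30.8, 33.3 and 27.5 CPM untreated (−2.16 ± 0.18, adjusted p = 2.4e-13). The groups did not overlap in any of these 3, and AT2G35130 fell by 2.19 on the log2 scale.

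Among the members that rose with flg22 in Col-0 seedlings, AT2G35390 had 273, 277 and 225 CPM with flg22 against 52.5, 54.8 and 60.4 CPM untreated (2.21 ± 0.09, edgeR adjusted p = 5.4e-23). AT2G36950 had 363.6 ± 29.2 CPM with flg22 against 111.9 ± 4.17 CPM untreated (1.70 ± 0.07, n = 3 each, adjusted p = 2.1e-21), and AT1G10900 rose by 1.65 ± 0.12. OMT1 (AT5G54160), a caffeate O-methyltransferase of lignin and flavonoid synthesis, had 1517 ± 92.0 CPM with flg22 against 556 ± 20.1 CPM untreated (1.45 ± 0.06, adjusted p = 2.7e-22). Neither AT2G35390 nor OMT1 passed in mta leaves at 24 against 00, at −0.29 and −0.36, and both passed with the replicate number as a block. TOC159 stood at 7575 ± 592 CPM with flg22 against 2377 ± 122 CPM untreated (1.67), but GSTF2, a glutathione transferase on the other strand, overlaps 20.3% of it and had 7714 CPM with flg22 against 2253 CPM untreated. In Col-0 leaves, TOC159 had 226 ± 21.2 CPM at 24 against 491.9 ± 41.9 CPM at 00, and the part of GSTF2 reads in its seedling level cannot be told apart.

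In mta seedlings 66 members were lower and 22 higher with flg22 (40.7% and 13.6%), where the background was 28.5% lower and 25.8% higher over all genes at the CPM minimum and 20.2% and 22% over all genes tested. The median was −0.25 for members and −0.01 for all genes at the minimum. Of the 66 lower members 61 were also lower in Col-0, and of the 22 higher ones 19 were also higher. How often all genes shared a call between the genotypes was not counted. The members' median was nearer to 0 in mta than in Col-0, and that difference was not tested. ATH1 had 3.73, 1.89 and 2.60 CPM with flg22 against 3.55, 3.45 and 3.16 CPM untreated in mta, where its groups overlapped (−0.30 ± 0.41, edgeR adjusted p = 0.6).

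Between untreated mta and Col-0 seedlings the members split evenly, with 28 higher and 27 lower in mta (17.3% and 16.7%), against a background of 20.8% higher and 23.7% lower over all genes at the CPM minimum and 18.1% and 15% over all genes tested. The median log2 fold change was 0.02.

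In GMUCT the members' uncapped RNA was mostly lower with flg22. All genes had a median log2 fold change of −0.48 on the log2(RPM + 1) scale, so changes are also given relative to it. Of 162 members, 103 were lower and 8 higher with flg22 in Col-0 seedlings (63.6% and 4.94%, limma, adjusted p under 0.05), where the background was 44.9% lower and 7.77% higher over all genes at the CPM minimum and 40.1% and 10.3% over all genes tested. The members' median was −1.02, which is −0.54 relative to all genes. By edgeR on the whole reads recovered from the RPM steps, 75 were lower and 18 higher with a median of −0.61, where all genes had −0.10. The Col-0 untreated library of replicate 2 held 3107893 reads, and without it 113 were lower and 4 higher. Of the 103 lower members, 88 were also lower in mRNA, and all 8 higher ones were also higher in mRNA. Shared calls of mRNA and GMUCT were not counted over all genes, so this is not read as particular to the members.

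UMAMIT44, the member with the strongest leaf peaks, had 1.19, 2.29 and 1.28 RPM with flg22 against 15.2, 17.1 and 13.5 RPM untreated in GMUCT (−2.67 ± 0.50, −2.19 relative to all genes, limma adjusted p = 0.000309). KT2/3 had 5.73, 3.67 and 3.24 RPM with flg22 against 22.9, 56.6 and 19.7 RPM untreated (−2.58 ± 0.40, adjusted p = 6.4e-05), where the high value is that of replicate 2. AT5G27120 had 20.8, 20.1 and 17.8 RPM with flg22 against 101, 105 and 101 RPM untreated (−2.33 ± 0.32, adjusted p = 2.7e-05). In the other direction, AT2G35390 had 50.01, 70.6 and 75.2 RPM with flg22 against 17.8, 13.8 and 21.6 RPM untreated (1.82 ± 0.27, adjusted p = 4e-05). OMT1 rose by 1.18 ± 0.29 and AT1G10900 by 1.15 ± 0.22. These 3 genes were higher in mRNA as well. TOC159 was lower in GMUCT, at 121.5 ± 16.3 RPM with flg22 against 391.5 ± 118 RPM untreated (−1.65 ± 0.30, n = 3 each, limma adjusted p = 0.000251). Its mRNA counts were higher with flg22, but the part of GSTF2 reads in those counts cannot be told apart.

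**Figure D4:**
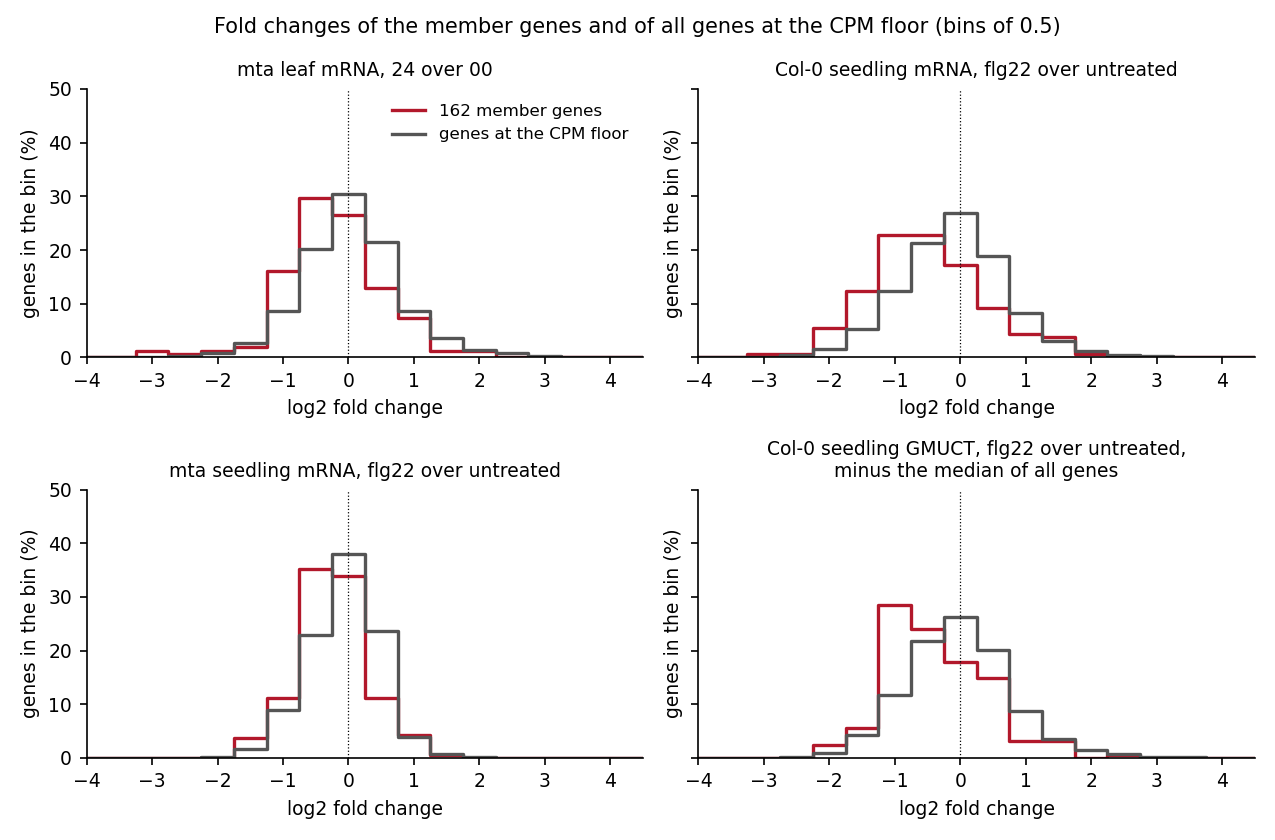
Distribution of log2 fold changes (x axis, bins of 0.5; y axis, % of genes in the bin) of the 162 members and of all genes at the CPM minimum in 4 comparisons. The members' medians are −0.27 in mta leaves, −0.61 in Col-0 seedlings, −0.25 in mta seedlings and, relative to all genes, −0.54 in GMUCT, each below the median of all genes at the minimum in that comparison.

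Several members share a family, and these pairs were named for their symbols after the values were seen. Differences between the genes of a pair were not tested. RR10 had higher mRNA in mta leaves at 24 (given above), and RR12 had 21.2, 22.01 and 23.7 CPM at 24 against 17.2, 14.98 and 17.2 CPM at 00 in mta (0.39 ± 0.13, edgeR adjusted p = 0.0201). That call was lost without mta at 00 replicate 2 or mta at 24 replicate 3. In Col-0 leaves RR12 had 15.5, 17.1 and 19.7 CPM at 24 against 25.3, 20.4 and 20.5 CPM at 00. ARF8 had 31.2, 30.1 and 35.4 CPM in mta at 24 against 47.0, 43.6 and 40.8 CPM at 00 (−0.49 ± 0.10, adjusted p = 0.00153), and ARF17 had 9.82, 11.8 and 12.5 CPM at 24 against 12.9, 11.7 and 10.4 CPM at 00 (−0.08 ± 0.12, adjusted p = 0.594). BGLU9 had 49.7, 46.6 and 50.1 CPM in mta at 24 against 53.1, 31.0 and 33.2 CPM at 00 (0.28 ± 0.23, adjusted p = 0.311). UMAMIT44 and UMAMIT46 both fell in mta leaves, by 0.93 and 0.92 on the log2 scale, and neither had a peak in any Col-0 seedling list. TOC159 and TOC75-III both fell in mta leaves at 24, by 0.71 and 0.67, the second a call lost without mta at 00 replicate 3 or mta at 24 replicate 1. In seedlings with flg22 TOC75-III fell by 0.69 in Col-0 and by 0.61 in mta.

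The light-signalling members HY5, SPA1 and PIF3 were named in the same way. HY5, a transcription factor that promotes growth in light, had 14.1, 12.3 and 14.0 CPM in mta at 24 against 11.998, 9.55 and 9.44 CPM in mta at 00 (0.34 ± 0.11, edgeR adjusted p = 0.0154), a call lost without mta at 00 replicate 2 or 3 or mta at 24 replicate 3. In Col-0 it had 14.2, 11.9 and 12.6 CPM at 24 against 20.6, 18.1 and 19.6 CPM at 00, the opposite order. SPA1, which represses light signalling, rose by 0.63 ± 0.16 in mta leaves at 24, and PIF3, a factor of the dark response, did not pass there (−0.09 ± 0.24, adjusted p = 0.773). In Col-0 seedlings PIF3 fell by 0.70 ± 0.12 with flg22. HY5, PIF3 and SPA1 had a peak in all 5 Col-0 seedling lists and in none of the mta leaf lists at 00.

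The most abundant members in Col-0 leaves at 24 were AT3G24190, TOC159, OMT1 and AT1G28600, with means of 302, 226, 182 and 182 CPM. AT3G24190 had 289, 306 and 326 CPM in mta at 24 against 394.5, 372.5 and 360.5 CPM in mta at 00 (−0.34 ± 0.10, edgeR adjusted p = 0.0123).

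Among the genes of the m6A pathway, none of which was a member, the demethylase gene ALKBH10B had 121.4 ± 9.43 CPM in mta leaves at 24 against 81.0 ± 8.86 CPM at 00 (0.54 ± 0.13, n = 3 each, edgeR adjusted p = 0.00492). In Col-0 seedlings it had 230.4 ± 22.8 CPM with flg22 against 70.0 ± 2.52 CPM untreated (1.72 ± 0.08, adjusted p = 1.4e-20), and in mta seedlings 175.4 ± 4.32 CPM with flg22 against 132.6 ± 2.37 CPM untreated (0.40 ± 0.08, adjusted p = 4.6e-05). MTB, a writer, had 34.9 ± 1.41 CPM in mta leaves at 24 against 35.0 ± 2.88 CPM at 00 (−0.05 ± 0.09, adjusted p = 0.618). Of 10 reader genes tested, 4 were higher and 2 lower in mta leaves at 24, and 1 was higher and 4 lower with flg22 in Col-0 seedlings. Over all genes tested, 30.9% were higher and 28.1% lower in mta leaves, and 27.9% and 30.7% in Col-0 seedlings. The counts of 10 genes are thus not read as particular to the readers.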

How the data were processed

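Of 75 samples, 68 had a file. Leaf mRNA (12 libraries) and seedling mRNA (12 libraries) were deposited as read counts per gene, the seedling counts made with featureCounts 2.0.1 per the file headers. GMUCT (18 libraries) was deposited as RPM. Peak lists (9 leaf, 17 seedling) were deposited for each library and each strand. Every peak had the fold and the −log10 of p and q that the authors' peak caller gave. STAR, MACS2 and the build TAIR10 are named in the submitters' processing notes, whose versions are not given in the sources used here. Another 12 columns of seedling counts could not be tied to a sample and were not used.

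Summits were placed in the 32844 gene loci of the seedling count table. Leaf and seedling counts were tested with edgeR 4.0.16 (quasi-likelihood test, TMM scaling, filterByExpr, R 4.3.3) in 1 fit per tissue, and GMUCT with limma 3.58.1 on log2(RPM + 1) after a filter that kept genes reaching 1 RPM in at least 3 libraries. The planned tests between mta and Col-0 leaves are not given as results, since the Col-0 leaf libraries chose the members, and those values are descriptions. p-values were adjusted by Benjamini-Hochberg over all genes tested, with a threshold of 0.05. The RPM steps gave whole reads, within 0.01, for all values, and edgeR on these reads was an alternative. Scripts were tested on simulated data. DESeq2 1.42.0, other filters and scalings, and leaving out each replicate were further alternatives. Depth sets the precision of the counts, and for the peak lists it is unknown.

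Deviations from the group means of samples with the same replicate number correlated by 0.35, 0.30 and 0.18 between mta at 24 and mta at 00. Between mta and Col-0 at 24 they correlated by 0.42, 0.25 and 0.25, so the numbers pair these samples as read from the data. The tests in mta leaves left this pairing out, and their counts with the replicate number as a block are given at the end. The genes named were the strongest by peak fold, the largest changes past the threshold in each direction per comparison (6 in mta leaves, 4 in Col-0 seedlings, 3 in GMUCT and between genotypes at 24), those next to the CPM minimum, those with the highest folds in all Col-0 seedling lists, and the most abundant, and others are said to be named after their values were seen. The members and gene lists were chosen with earlier results of these data known.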

Additional observations from a re-analysis of the deposited data

Results flagged for a closer look

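Among the named members, the 4 below were flagged because every library moved one way in one genotype and the other way in the other. They are not a full count over all members, and no share over all genes is given beside them. The number is thus not read as particular to the members. The difference itself was not tested in any of the 4 genes, and the Col-0 leaf values belong to the libraries that chose the members.

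RR12, a cytokinin response regulator, had a log2 fold change at 24 against 00 of 0.39 in mta leaves and −0.37 in Col-0 leaves. HY5, the light-response factor, had 0.34 in mta leaves and −0.63 in Col-0 leaves. In both genes mta at 00 was below Col-0 at 00.

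AT1G28600 had 154, 158 and 148 CPM in mta seedlings with flg22 against 169, 175 and 182 CPM in untreated mta, a log2 fold change of −0.20 (edgeR adjusted p = 0.0423). That call was lost with the replicate number as a block, under DESeq2 and its size factors, and without any 1 of 5 libraries (mta flg22 replicates 1 to 3, mta untreated replicates 2 and 3). In Col-0 seedlings it had 200.2, 170.0 and 179 CPM with flg22 against 141, 156 and 167 CPM untreated, a log2 fold change of 0.25 (edgeR adjusted p = 0.00716), a call lost without Col-0 untreated replicate 1. The beta-glucosidase gene BGLU9 had a log2 fold change with flg22 of 0.53 in mta seedlings, where it did not pass the threshold (edgeR adjusted p = 0.0918), and −0.99 in Col-0 seedlings (edgeR adjusted p = 0.00327).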

How the results depend on the processing

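Over the alternatives, the comparisons of named genes kept their side of the threshold in 4011 cases, gained a call in 59 and lost one in 142. Of the comparisons that passed in the fit used above, 0 changed direction. For those that did not pass, a change of direction was not counted. A CPM minimum of 5 gave seedling peak shares of 47.5% with flg22 and 69.4% untreated. A minimum of 20 gave 98 members with 62.2% and 80.1%. Assigning summits to the same strand gave 3 members with 3.33 peaks a list and shares of 0% in mta leaves, 11.1% with flg22 and 33.3% untreated. Asking for 2 of 3 lists gave 378 members, 632 peaks a list and a share of 11.7% in mta leaves. The last 10% of the gene held 14.1% of the summits, and overlap by 50% of both peaks left 64 members with a shared place. A q of 0.05 gave 146 genes, of which 83 are members. GMUCT had 5 members higher when only the compared groups were fitted and 18 by edgeR on whole reads, where the median was −0.61. The median between untreated mta and Col-0 seedlings, 0.02, was −0.0095 without Col-0 replicate 1 and −0.0131 without mta replicate 2, in a range of −0.0131 to 0.0245. A lower CPM minimum or fewer lists asked for can only add members. On the same strand only 4.00% of all summits lie in a gene. The cause of the other changes was not tested.

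Leaving out 1 library gave 190 to 287 members (287 without Col-0 24 replicate 1, 286 and 244 without Col-0 00 replicates 2 and 3). Leaving out a list that the rule asks about can only add members, so this does not check how stable the set is. It gave 446 to 669.7 peaks a list, and peak shares of 12.1% to 23.5% in mta leaves and 51.3% to 60.4% in flg22 seedlings. Between mta and Col-0 leaves edgeR's calls are not tests of the members, since the Col-0 leaf libraries chose the members. No share over all genes at the CPM minimum is given beside these calls. Leaving out 1 library gave 28 to 48 members called higher and 4 to 11 called lower at 24. The genes called at 24 numbered 3298 to 5158 (3298 without Col-0 24 replicate 3, against 5405). At 00 the genes called numbered 3574 to 4814 (3574 without Col-0 replicate 2, against 5410). In untreated seedlings leaving out 1 library gave 17 to 25 members lower (17 without mta replicate 1). In GMUCT 4 to 8 members were higher (4 without Col-0 flg22 replicate 2 or untreated replicate 2, 5 without flg22 replicate 3).

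With the replicate number as a block, 35 members were called higher and 78 lower in mta leaves. The counts were 29 and 95 in Col-0 seedlings, and 22 and 64 in mta seedlings. Between untreated seedlings they were 28 and 28, and in GMUCT 8 and 103. No count of members moved by over 1.5 times under the block. Outside the pairs given with the processing, the samples share only a number. The planned motif searches were not run, since no genome sequence was used here. Unknown depth limits the peak lists: a peak that was not called is not shown to be absent.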
